A study of Mus musculus with 4 samples.

Results

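Cxcl9 and Cxcl10 are a pair of neighbouring interferon-induced chemokine genes, and they were followed here in bone marrow stromal and endothelial cells of mice grafted with a human lymphoma. They are 2 of the 32285 mouse genes counted in every library, chosen by name, and both were present in all 4 libraries. The Graft_D40 and Graft_D19 libraries came from femurs grafted with DOHH2, a long-established B-cell line from a human follicular lymphoma, 40 and 19 days before the harvest. The Sham_D40 library came from femurs injected with PBS and harvested 40 days later, and the Ctrl library from ungrafted mice. All mice were C57BL/6 with the Rag2-/-gammac-/- genotype, which leaves a host without T, B or natural killer cells, so that the cells which classically make interferon-gamma and carry the receptor of these chemokines were missing from grafted and ungrafted mice alike. The sources used here state neither the age nor the number of mice behind a library. After depletion with antibodies to Cd45 and Ter119, Cd31- Cd51+ Cd200+ stromal cells and Cd31+ Sca1+ endothelial cells were sorted for single-cell 3' RNA sequencing. Each group is 1 library, so no difference below has a replicate check or a test, and each interval covers counting error only.

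Cxcl9 and Cxcl10 are secreted ligands of the receptor Cxcr3, through which activated T cells and natural killer cells are drawn to inflamed tissue. Interferon-gamma is the classical inducer of both. Cxcl10 can in addition be induced by type I interferons and by NF-kB signals such as those of tumour necrosis factor, whereas Cxcl9 depends more closely on interferon-gamma.

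The genes lie next to each other on mouse chromosome 5 and are read from the minus strand. Cxcl9 (ENSMUSG00000029417) spans chr5:92321347-92328079 and Cxcl10 (ENSMUSG00000034855) spans chr5:92346638-92348889 in GRCm38, with 18558 bases between them. Cxcl9 overlaps no annotated gene. Cxcl10 lies inside Art3 (ENSMUSG00000034842), a gene of the opposite strand at chr5:92331827-92414628, and shares 133 exonic bases with it. Whether the counting used strand is not known here, and Art3 ran against Cxcl10 in endothelium, with 18.4, 20.6, 26.0 and 36.4 UMIs per 1000000 UMIs of the class in Graft_D40, Graft_D19, Sham_D40 and Ctrl. In stroma with LepR-type markers Art3 had 8.30, 3.13, 2.74 and 3.64 in the same order and scale, where Cxcl10 was also highest in Graft_D40, and the part of shared bases in that was not tested. Cxcl11, the third Cxcr3 ligand, is annotated in this strain's reference as a polymorphic pseudogene at chr5:92359544-92365485 and was not analysed here.

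The 250 bases upstream of each start site are shown because the results turn on how the pair differs, and these windows are where the best known inducible elements of such genes lie. They were taken from RefSeq (GRCm38.p6, minus strand, 5′ to 3′), at chr5:92328080-92328329 for Cxcl9 and chr5:92348890-92349139 for Cxcl10. Capitals mark matches to the motifs searched on both strands.
Cxcl9: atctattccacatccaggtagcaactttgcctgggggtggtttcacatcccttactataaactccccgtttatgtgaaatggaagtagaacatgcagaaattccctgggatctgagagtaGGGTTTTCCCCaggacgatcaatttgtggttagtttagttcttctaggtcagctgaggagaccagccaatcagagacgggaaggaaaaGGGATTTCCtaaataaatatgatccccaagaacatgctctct
Cxcl10: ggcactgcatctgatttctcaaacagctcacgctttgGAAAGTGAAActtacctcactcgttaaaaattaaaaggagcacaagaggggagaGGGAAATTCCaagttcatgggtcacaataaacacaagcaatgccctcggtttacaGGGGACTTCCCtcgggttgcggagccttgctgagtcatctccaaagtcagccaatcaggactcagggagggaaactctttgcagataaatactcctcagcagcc

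The core of an interferon-stimulated response element, searched as GAAA, any 2 bases and GAAA, was found once in the Cxcl10 window, at 213 to 204 bases before the start, and not in the Cxcl9 window. It occurred in 2.98% of 32851 mouse promoter windows of the same length. GGGNNTTCC, an NF-kB-type motif held by 4.98% of windows, occurred in both genes, at 130 to 122 and 42 to 34 bases before the Cxcl9 start and at 103 to 95 bases before the Cxcl10 start. A looser NF-kB-type motif (GGG, any 5 bases, CC), which can overlap the stricter one, occurred in both windows and in 45.8% of all windows. A further motif searched, TTCNNNGAA, was present in 7.02% of windows and had no match in either gene's window. The longest run the windows share is CAGCCAATCAG, 11 bases long, at 68 to 58 bases before the Cxcl9 start and 57 to 47 bases before the Cxcl10 start. A match is a description of these letters and not a mapped binding site. Only these motifs were searched, so a missing match does not show that a window lacks an element that responds to interferon.

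The 4 libraries held 4867, 4813, 4527 and 4074 cells after filtering in Graft_D40, Graft_D19, Sham_D40 and Ctrl. Their gene UMIs (unique molecular identifiers, 1 per captured mRNA) came to 72204599, 63214301, 51744386 and 18533482. The median UMIs per passing cell were 8674 to 9842.5 in the other 3 libraries and 3587 in Ctrl, which stood apart in depth and in its clusters: 1100 of the 1119 cells in 1 cluster and 976 of the 1218 in another came from it. Library pairs shared 11 to 15 cell barcodes. Each cell was assigned by the mean scaled level of marker lists, giving 2117 to 3060 stromal and 1205 to 1287 endothelial cells per library. The 12 endothelial markers had a median of 77 UMIs in endothelial cells against 1 in stromal cells.

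Endothelial cells held most Cxcl9 UMIs of the ungrafted libraries and a smaller share of them in the late graft. These are shares among the sorted cells, which depend on the mix of cells sorted, and not shares of the marrow. Endothelium made up 25.6% of Graft_D40 cells and held 37.1% of the Cxcl9 UMIs there, against 81.2% in Sham_D40 and 67% in Ctrl. Its share of Cxcl10 UMIs was 31.8% in Graft_D40, against 67.7% in Sham_D40 and 35.8% in Ctrl. Stroma with LepR-type markers held 23.0% of Cxcl9 and 13.5% of Cxcl10 UMIs in Graft_D40. Cells that passed no marker gate held 22.1% of Cxcl10 UMIs in Graft_D40 and 41.6% in Ctrl, and no class level below includes them.

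Levels are given as CPM, the UMIs of a gene per 1000000 UMIs of the same class and library. In endothelium, Cxcl9 stood at 85.3 CPM in Graft_D40, 151 CPM in Graft_D19, 142 CPM in Sham_D40 and 199 CPM in Ctrl. The 95% Poisson intervals ran from 80.0 to 91.0 in Graft_D40 and from 135 to 150 in Sham_D40 and did not overlap. Endothelial Cxcl10 went the other way, with 80.0 CPM (74.8 to 85.4) in Graft_D40, 28.4 CPM (25.4 to 31.6) in Graft_D19, 11.9 CPM (9.83 to 14.4) in Sham_D40 and 15.1 CPM (12.0 to 18.7) in Ctrl. Graft_D40 was the highest library for Cxcl10 and the lowest for Cxcl9.

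In stroma, both members were highest in Graft_D40. Cxcl9 stood at 23.1 CPM in Graft_D40, 12.1 CPM in Graft_D19, 7.13 CPM in Sham_D40 and 14.6 CPM in Ctrl. Cxcl10 stood at 28.0 CPM in Graft_D40, 6.03 CPM in Graft_D19, 0.587 CPM in Sham_D40 and 4.82 CPM in Ctrl, from 1262, 252, 21 and 43 UMIs. The 2 ungrafted libraries differed from each other in stroma, Sham_D40 being 0.49 times Ctrl for Cxcl9 and 0.12 times Ctrl for Cxcl10, so the size of a graft difference depended on which of them was used.

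**Figure D1:**
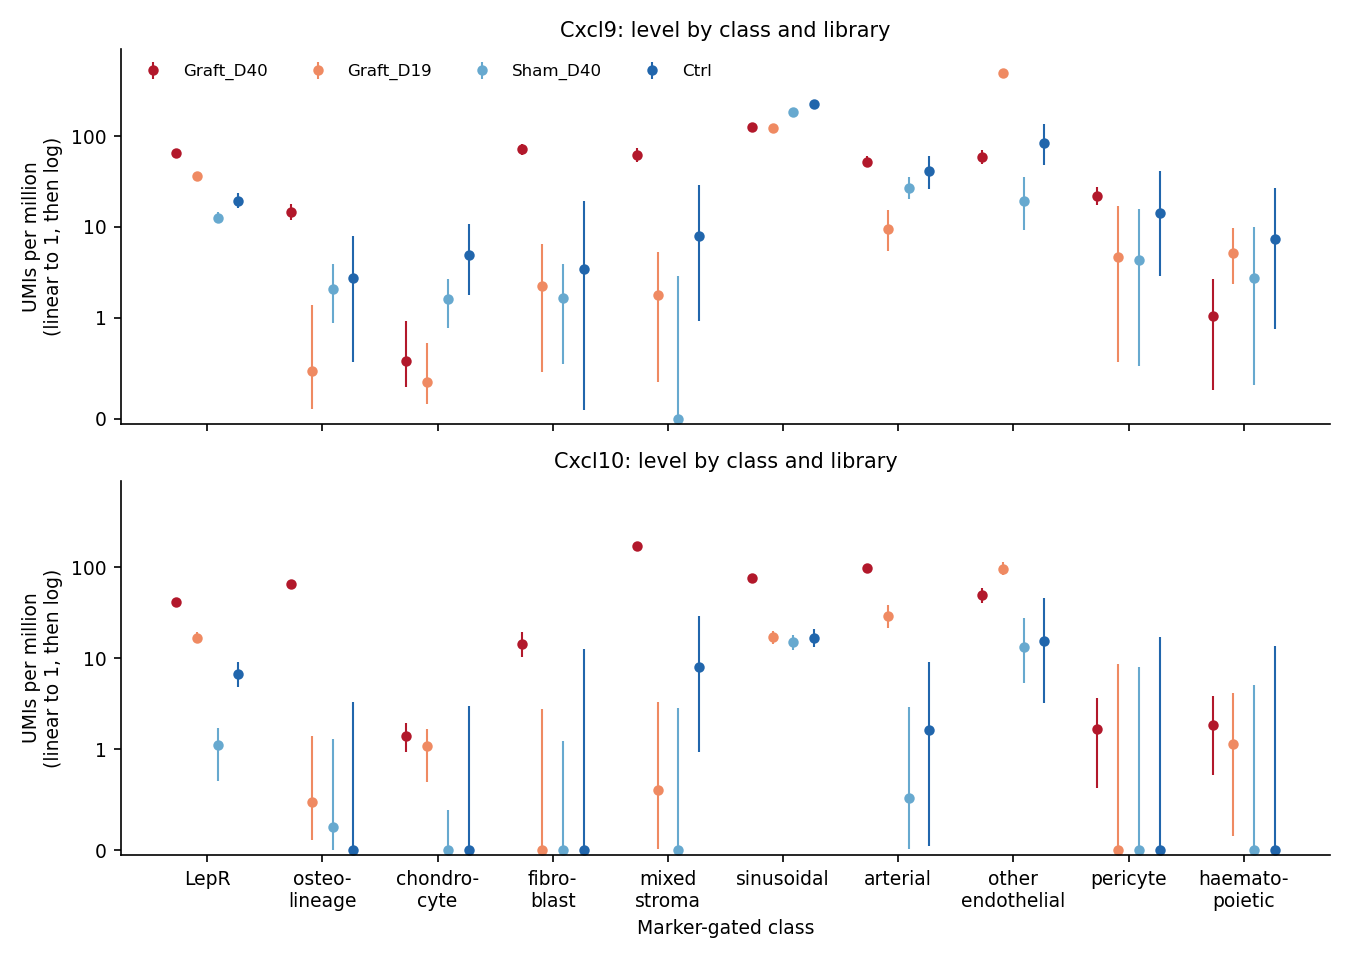
Level of Cxcl9 (top) and Cxcl10 (bottom) in CPM for each marker-gated class (horizontal axis) and library (colour), with 95% Poisson intervals; the vertical axis is linear up to 1 and logarithmic above. Sinusoidal cells held 123 to 225 CPM of Cxcl9 in every library, while Cxcl10 stood higher in Graft_D40 than in Sham_D40 in each of the 10 classes drawn. In haematopoietic and pericyte-marker cells that was 7 and 6 UMIs against 0 in small Sham_D40 pools, which does not set the libraries apart. In haematopoietic cells of Sham_D40, 3 UMIs would be 4.16 CPM.

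Within stroma, both genes were detected in every library in the class with markers of LepR-expressing perivascular cells (Lepr, Cxcl12, Adipoq, Kitl and others), the stroma that supplies haematopoietic stem cells and lymphoid progenitors. Cxcl9 there stood at 64.3 CPM in Graft_D40, 36.7 CPM in Graft_D19, 12.7 CPM in Sham_D40 and 19.5 CPM in Ctrl. Cxcl10 stood at 41.2 CPM in Graft_D40, 16.9 CPM in Graft_D19, 1.12 CPM in Sham_D40 and 6.78 CPM in Ctrl. A single cell held 54.8% of these Cxcl10 UMIs in Graft_D40 and 61.2% in Graft_D19, against 30% in Sham_D40 and 73.2% in Ctrl. Without it the levels were 18.6 CPM in Graft_D40, 6.56 CPM in Graft_D19, 0.785 CPM in Sham_D40 and 1.82 CPM in Ctrl. With and without the highest cell, both members had the order Graft_D40, Graft_D19, Ctrl, Sham_D40 in this class.

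Other stromal classes had little of either gene outside Graft_D40. Fibroblast-marker cells held 71.3 CPM of Cxcl9 in Graft_D40, against 2.23, 1.67 and 3.43 CPM in Graft_D19, Sham_D40 and Ctrl. Their Cxcl10 came to 14.3 CPM in Graft_D40 (43 UMIs) and to no UMI in the other 3 libraries. Chondrocyte-marker cells, the deepest class in 3 of the 4 libraries, held at most 4.91 CPM of Cxcl9 and 1.40 CPM of Cxcl10. Osteolineage-marker cells held 14.7 CPM of Cxcl9 in Graft_D40 and 0.479 to 2.71 CPM in the others. Their 65.2 CPM of Cxcl10 in Graft_D40 was 431 UMIs, of which 92.6% lay in 1 cell.

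Among endothelial cells the sinusoidal-marker class, the leaky vessels that drain the marrow, carried most of the Cxcl9. It held 127 CPM in Graft_D40, 123 CPM in Graft_D19, 183 CPM in Sham_D40 and 225 CPM in Ctrl. Its Cxcl10 stood at 76.6 CPM in Graft_D40 and at 17.1, 14.9 and 16.8 CPM in Graft_D19, Sham_D40 and Ctrl, so that Graft_D40 alone stood above the other three. Arterial-marker cells held 52.2 CPM of Cxcl9 in Graft_D40 and 9.40 in Graft_D19, against 27.1 in Sham_D40 and 40.7 in Ctrl. Arterial Cxcl10 stood at 99.3 CPM in Graft_D40 and 29.4 in Graft_D19, against 0.521 in Sham_D40 and 1.63 in Ctrl, and in Graft_D40 82.2% and in Graft_D19 90% of it lay in 1 cell.

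Ordered by the median over the 4 libraries, Cxcl9 ran from sinusoidal cells (155 CPM) through other endothelial cells (71.2), arterial cells (33.9), LepR-marker stroma (28.1) and pericyte-marker cells (9.40) down to chondrocyte-marker cells (1.09). Cxcl10 ran from other endothelial (32.5 CPM) and sinusoidal cells (17.0) through arterial cells (15.5) and LepR-marker stroma (11.8) to fibroblast- and pericyte-marker cells, whose median was 0. Each class overlapped its neighbour in that order in its range over the libraries, for both genes. The endothelial cells that matched neither vessel list had the widest Cxcl9 range in CPM among these classes, though not the widest relative to its lowest value. Their 492 CPM of Cxcl9 in Graft_D19 lay to 85.4% in 1 cell, against 59.3, 19.2 and 83.2 CPM in Graft_D40, Sham_D40 and Ctrl.

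Late graft and sham were compared first, in the classes for which the comparison was set up. A gene was called where it averaged 5 CPM or more, differed 1.5-fold or more and had a counting interval off 1. In stroma both members were called higher in Graft_D40 than in Sham_D40, a direction in which 5.37% of 10850 genes were called. Cxcl9 was 3.25-fold higher (2.83 to 3.74) and Cxcl10 47.7-fold higher (31.1 to 77.3). On the log2 scale with 1 CPM added, the differences were 1.57 for Cxcl9 and 4.19 for Cxcl10.

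In endothelium the members were called in opposite directions. Cxcl10 was 6.70-fold higher in Graft_D40 than in Sham_D40 (5.50 to 8.22, log2 2.65), where 7.58% of 10385 genes were called higher. Cxcl9 was 0.599 times its Sham_D40 level (0.55 to 0.65, log2 -0.73), where 7.22% of genes were called lower. In the sinusoidal class, where 8.91% of genes were called higher and 6.75% lower, Cxcl10 was 5.12-fold higher (4.11 to 6.43), or 42.8 against 11.8 CPM without the highest cell of each library, and Cxcl9 stood at 0.69 times Sham_D40 without passing the 1.5-fold limit. In the arterial class, where 5.32% of genes were called higher, Cxcl9 was 1.93-fold higher (1.42 to 2.66). Of the 218 Graft_D40 UMIs there, 71 lay in 1 cell. In the endothelial cells of cluster 17, led by Gja5 and Sema3g, that cell held 71 of 75 UMIs. Without the highest cell of each library, cluster 17 held 2.62 CPM in Graft_D40 and 7.57 CPM in Sham_D40. Those cluster cells had 75 UMIs in Graft_D40 and the arterial class 218. The cluster values therefore do not give the level of the class without that cell. The class was higher in Graft_D40 and the cluster without its highest cell was not. Whether arterial cells share the lower Cxcl9 of Graft_D40 endothelium was therefore not settled.

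In LepR-marker stroma, where 6.57% of genes were called higher and 3.86% lower in Graft_D40 than in Sham_D40, Cxcl9 was 5.08-fold higher (4.35 to 5.95) and Cxcl10 36.8-fold higher (23.5 to 60.9). The Cxcl10 ratio includes the cell named above that held 54.8% of the Graft_D40 UMIs. Fibroblast-marker cells had 42.7-fold more Cxcl9 (18.0 to 133) and osteolineage-marker cells 7.04-fold more (3.56 to 15.9). The fibroblast ratio rests on 214 against 5 UMIs, with 95.8% of the 214 in 10 cells. The osteolineage ratio rests on 97 UMIs in 7 cells against 9 UMIs in 5 cells, and 1 cell held 40.2% of the 97. At 2000 UMIs per cell the osteolineage shares overlapped, at 1.69% (0.55 to 3.91) against 0% (0 to 1.51). The share of all genes called is not given for these classes.

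Early graft and ungrafted control differed less. In whole stroma neither member was called between Graft_D19 and Ctrl, where 18.2% of genes were called higher and 14% lower. The ratio was 0.83 (0.69 to 1.02) for Cxcl9 and 1.25 (0.90 to 1.77) for Cxcl10. In LepR-marker stroma, Cxcl9 was 1.88-fold (1.53 to 2.32) and Cxcl10 2.49-fold (1.78 to 3.57) higher in Graft_D19, but 28.5% of genes were called higher (and 8.8% lower) in this comparison, so the call says little about the pair.

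Endothelial Cxcl10 was 1.89-fold higher in Graft_D19 than in Ctrl (1.48 to 2.43), where 18.4% of genes were called higher. That call rested on few cells, since the log2 ratio of 0.87 became 0.53 without the 1 cell with most UMIs and -0.04 as an unweighted mean over cells. Endothelial Cxcl9 stood at 0.76 times Ctrl (0.70 to 0.82) and was not called. In the sinusoidal class, where 7.34% of genes were called lower, Cxcl9 was 0.55 times Ctrl (0.50 to 0.60), and Cxcl10 did not differ beyond its interval (1.02, 0.77 to 1.36). In the arterial class, with 9.57% of genes called lower and 13.2% higher, the log2 ratio of Cxcl9 was -2.01. It rests on 16 against 25 UMIs (0.23 times Ctrl, 0.12 to 0.45). The endothelial cells of cluster 17 had 1 Cxcl9 UMI in Graft_D19 and 0 in Ctrl. Arterial Cxcl10 was called higher from 50 against 1 UMI (18.0-fold, 3.09 to 726), most of it in 1 cell as given above.

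The 2 graft libraries were also set side by side, with the reservation that each was a single library. Graft_D40 exceeded Graft_D19 in LepR-marker stroma by 0.79 for Cxcl9 and 1.24 for Cxcl10 on the log2 scale. In endothelium the log2 difference was -0.82 for Cxcl9 and 1.46 for Cxcl10.

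Behind these levels stood different numbers of positive cells. Without any adjustment for depth, 18.2% of endothelial cells had a Cxcl9 UMI in Graft_D40 and 29.8% in Graft_D19, against 34.3% in Sham_D40 and 34.5% in Ctrl. After each cell was thinned to 2000 UMIs, which left out 42, 47, 42 and 382 shallower endothelial cells, the shares were 7.81%, 14.2%, 17.6% and 25.6% in the same order. In the sinusoidal class they were 13.6% in Graft_D40 and 18.2% in Graft_D19, against 24.7% in Sham_D40 and 28.7% in Ctrl. The Clopper-Pearson intervals of Graft_D40 (10.6% to 17.1%) and Sham_D40 (21.7% to 28.0%) did not overlap, so fewer sinusoidal cells had a Cxcl9 UMI in Graft_D40 at equal depth. Between Graft_D19 and Sham_D40 endothelium the share and the CPM ran in opposite directions, and no order was read from them.

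For LepR-marker stroma, the thinned share with Cxcl9 was 4.56% (3.38 to 6.00) in Graft_D40 and 2.08% in Graft_D19, against 1.83% (1.28 to 2.53) in Sham_D40 and 1.31% in Ctrl. The thinned Cxcl10 share was 1.62% (0.94 to 2.57) in Graft_D40 and 0.67% in Graft_D19, against 0.21% (0.06 to 0.53) in Sham_D40 and 0.46% in Ctrl. Chondrocyte-marker cells, a class with little of either gene, were set beside them at the same depth. Their Cxcl9 share was 0.11%, 0.16%, 0% and 1.01% in Graft_D40, Graft_D19, Sham_D40 and Ctrl, and their Cxcl10 share 0.44%, 0.32%, 0% and 0%. The Cxcl9 share of LepR-marker cells in Ctrl and their Cxcl10 shares in Graft_D19, Sham_D40 and Ctrl lay within the interval of the chondrocyte share of the same library, and are not separated from it. In Ctrl they could hardly have been, since 99 chondrocyte-marker cells remained after thinning and the intervals reached 5.50% for Cxcl9 and 3.66% for Cxcl10. The chondrocyte share need not be background either, since 1 chondrocyte-marker cell of Graft_D19 held 11 Cxcl10 UMIs. Before thinning, the median depths were 3812.5 to 8776 UMIs in LepR-marker cells and 1519 to 25211 in chondrocyte-marker cells.

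The endothelial Cxcl10 share differed far less between libraries than the Cxcl10 level. At 2000 UMIs it was 2.00% (1.28 to 2.95) in Graft_D40 and 1.85% in Graft_D19, against 1.46% (0.85 to 2.33) in Sham_D40 and 1.44% in Ctrl, with overlapping intervals. The unthinned shares were 4.18%, 3.57%, 2.90% and 2.49%. The level of Graft_D40 thus differed from that of Sham_D40 by 6.70-fold while the shares of positive cells overlapped.

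**Figure D2:**
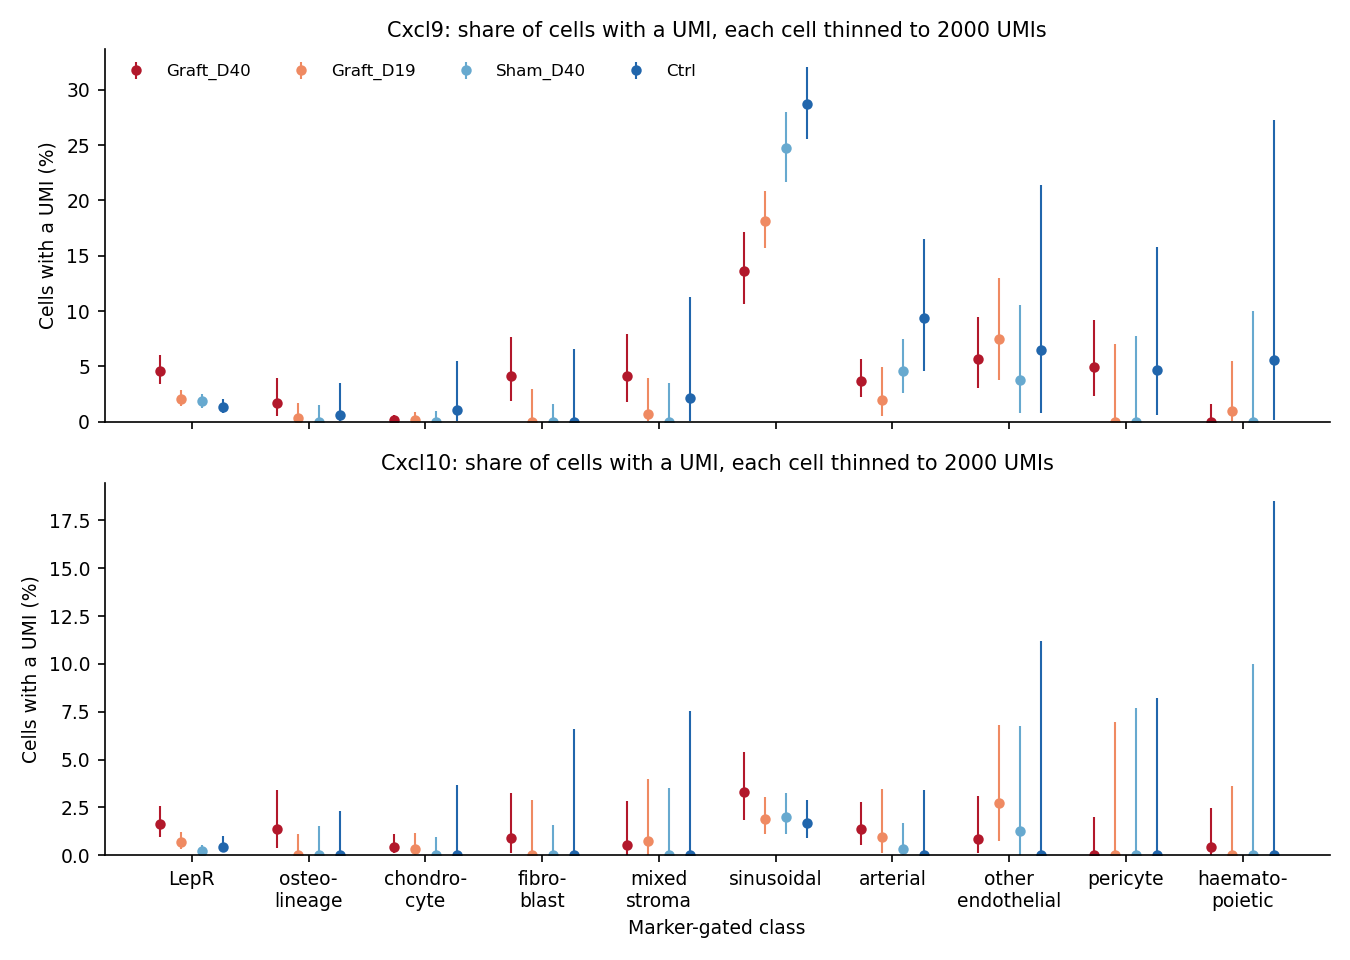
Share of cells with a UMI of Cxcl9 (top) and Cxcl10 (bottom), in percent, after thinning each cell to 2000 UMIs, by marker-gated class and library, with 95% Clopper-Pearson intervals. Cxcl9 in sinusoidal cells runs from 13.6% in Graft_D40 to 28.7% in Ctrl, whereas the Cxcl10 shares of the libraries overlap in that class.

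Cxcl10 transcripts were concentrated in a handful of cells. Its median in positive cells was 1 to 2 UMIs, yet 10 cells held 90.4% of the endothelial Cxcl10 UMIs in Graft_D40 and 80.8% in Graft_D19, against 71.7% in Sham_D40 and 66.7% in Ctrl. Endothelial cells with 10 or more Cxcl10 UMIs numbered 10 in Graft_D40 and 6 in Graft_D19, against 3 in Sham_D40 and 1 in Ctrl. In stroma there were 10, 4, 0 and 1 such cells. Over all classes, 180, 84, 53 and 60 cells had any Cxcl10 UMI and 26, 11, 4 and 6 had 10 or more.

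Single cells therefore carried much of a class level. In Graft_D40, 1 osteolineage-marker cell held 399 Cxcl10 and 39 Cxcl9 UMIs among 51555, 1 mixed-stroma cell held 370 and 20, and 1 arterial-marker cell held 341 and 71. The osteolineage and mixed-stroma cells lay within the 1262 Cxcl10 UMIs of Graft_D40 stroma. In Graft_D19, 1 endothelial cell outside both vessel classes held 598 Cxcl9 and 126 Cxcl10 UMIs, and 1 LepR-marker cell held 139 Cxcl10 and 35 Cxcl9. None of these 5 cells had a UMI of the macrophage genes C1qa, C1qb, C1qc, Tyrobp, Adgre1, Aif1 or Csf1r.

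Cxcl9 was spread over more cells. The top 10 cells held 47.5% of the endothelial Cxcl9 UMIs in Graft_D40 and 42.8% in Graft_D19, against 11.3% in Sham_D40 and 11.9% in Ctrl. The top cell alone held 9.59% and 33.2% in the graft libraries, against 1.56% and 1.96% in the ungrafted ones. Without the 10 highest cells of each library, endothelial Cxcl9 lay further below Sham_D40 in Graft_D40 (log2 -1.47), and the Cxcl10 excess shrank to 0.98 in endothelium and to 1.82 in stroma.

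**Figure D3:**
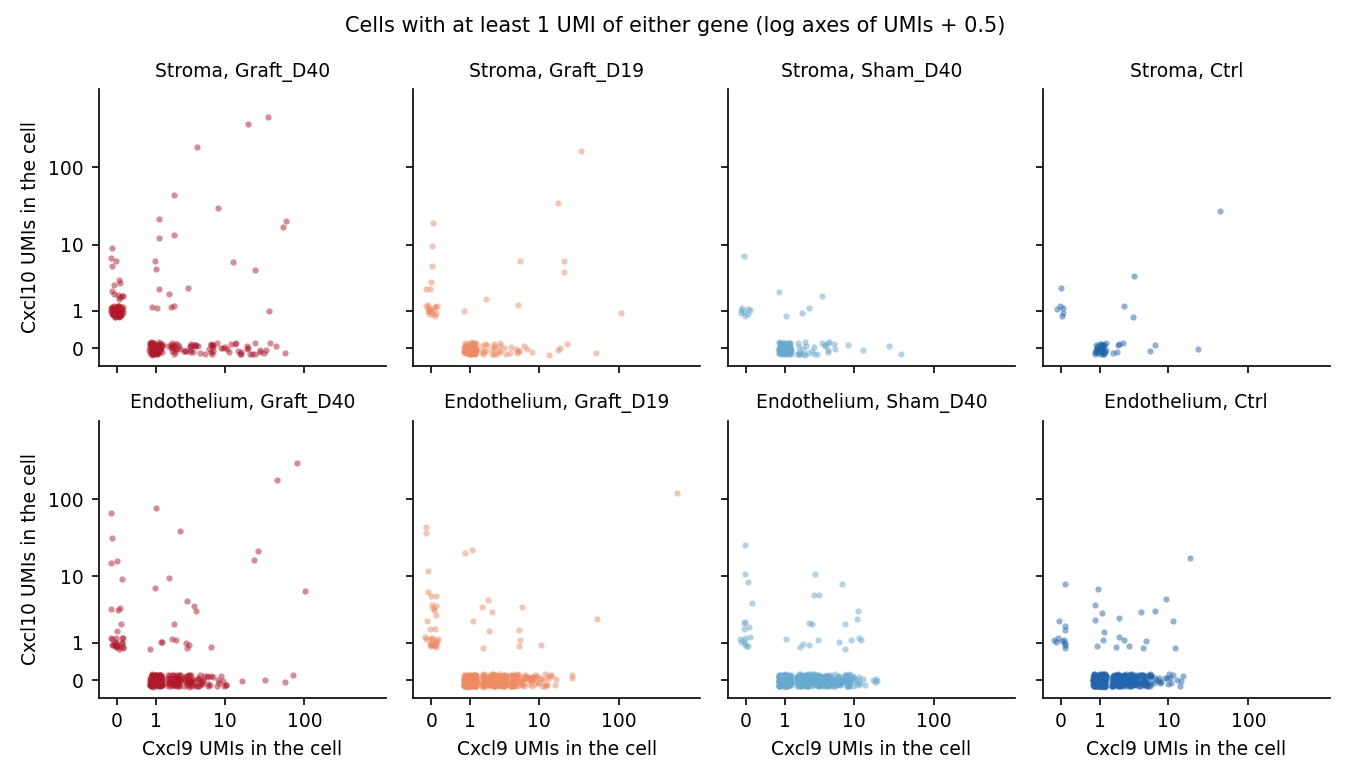
Cxcl9 UMIs (horizontal axis) against Cxcl10 UMIs (vertical axis) in each stromal (top) and endothelial (bottom) cell with at least 1 UMI of either, by library, on log axes of UMIs + 0.5 with a small random jitter. Most cells lie along 1 axis at low counts, and the cells with 100 or more Cxcl10 UMIs occur in the graft libraries.

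The pair was then followed in the same cells. In Graft_D40 endothelium, 22 cells had both genes, 205 had Cxcl9 alone and 30 Cxcl10 alone. The counts were 15, 368 and 31 in Graft_D19, 19, 394 and 16 in Sham_D40, and 20, 422 and 12 in Ctrl. Among endothelial cells with Cxcl10, 42.3% (28.7 to 56.8) had Cxcl9 in Graft_D40, against 17.2% of those without Cxcl10. In Graft_D19 the shares were 32.6% and 29.7%, in Sham_D40 54.3% and 33.7%, and in Ctrl 62.5% and 33.7%. Positive cells were also deeper, with a median of 11438.5 UMIs in Cxcl10-positive endothelial cells of Graft_D40 against 6778 in cells with neither gene. At 2000 UMIs per cell, the share of cells with Cxcl9 was 25.0% (9.77 to 46.7) with Cxcl10 and 7.5% without it in Graft_D40, 13.0% and 14.2% in Graft_D19, 23.5% and 17.5% in Sham_D40, and 46.2% and 25.3% in Ctrl.

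In LepR-marker stroma the shares of Cxcl9 with and without Cxcl10 lay further apart. Cells with Cxcl10 also had Cxcl9 in 40.5% (24.8 to 57.9) of cases in Graft_D40 and 40.9% in Graft_D19, against 38.5% in Sham_D40 and 44.4% in Ctrl. Of cells without Cxcl10, 8.1%, 5.3%, 4.7% and 2.1% had Cxcl9 in the same order. These shares rest on 15, 9, 5 and 4 cells with both genes. At 2000 UMIs per cell, Cxcl9 was found in 29.4% (10.3 to 56.0) of cells with Cxcl10 in Graft_D40, 45.5% in Graft_D19, 0% (0 to 60.2) in Sham_D40, where 4 cells had Cxcl10, and 33.3% in Ctrl, against 4.15%, 1.78%, 1.83% and 1.16% of cells without it. In the sinusoidal class, where Cxcl9 was common, the shares with and without Cxcl10 were closer, at 36.7% and 32.3% in Graft_D40 and 57.6% and 49.1% in Sham_D40.

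Cells with Cxcl10 were set against cells of the same class and library with neither gene, for lists of genes that respond to interferon-gamma (24 listed) and to type I interferons (24 listed, 22 in the files). A list gene counted as measured where it averaged 5 CPM or more over the pair of cell pools, and as higher by the same rule as above. In Graft_D40 endothelium, 52 cells with Cxcl10 were higher than 988 cells with neither for 15 of 17 measured interferon-gamma targets (median log2 1.43) and 17 of 21 measured type I targets (median 1.97), where 8.9% of all genes were called higher. Oasl1, an antiviral protein of the oligoadenylate synthetase family, stood at 188 CPM against 17.7 CPM, a 10.6-fold difference (8.33 to 13.5). Ifit2, an antiviral RNA-binding protein, stood at 289 against 43.7 CPM, and Iigp1, an interferon-induced GTPase of pathogen defence, at 959 against 208 CPM. None of the 52 cells had a UMI of the 7 macrophage genes.

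The same contrast in Graft_D19 endothelium, with 46 cells against 873, gave 22 of 22 interferon-gamma targets (median 1.58) and 15 of 20 type I targets (median 1.04), where 7.47% of genes were called higher. With cells that had Cxcl9 alone as the pool, 17 interferon-gamma targets were measured. Some of the 22 were thus measured only through their level in cells with Cxcl10. Gbp5, an interferon-induced guanylate-binding protein, stood at 69.9 against 12.7 CPM. The antigen-presentation genes Cd74 and H2-Ab1 stood at 104 against 0.668 CPM and 69.9 against 0.535 CPM. Both passed the 5 CPM limit only through the cells with Cxcl10, and how many of those cells held their UMIs was not examined. Of the 46 cells, 2 had a UMI of the macrophage genes, and their part in these values was not tested.

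In the ungrafted libraries Cxcl10-positive endothelial cells were less different from their neighbours. Sham_D40, with 35 cells against 776, gave 3 of 16 interferon-gamma targets (median 0.31) and 0 of 19 type I targets (median 0.25), where 7.87% of genes were called higher. Iigp1 stood at 405 against 200 CPM there, and Ifit3 at 76.2 against 53.1 CPM, with a ratio whose interval includes 1. Ctrl, with 32 cells against 829, gave 4 of 18 (median 0.66) and 6 of 20 (median 0.49), where 4.74% of genes were called higher. Whether the contrast differs between libraries was not tested, since each is 1 library.

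Endothelial cells with Cxcl9 but no Cxcl10 did not stand out in the interferon lists. In Graft_D40, 1 of 17 interferon-gamma targets and 0 of 21 type I targets were higher than in cells with neither, with medians of -0.12 and -0.08 and 5.43% of genes called higher. The corresponding counts were 1 of 17 and 0 of 20 in Graft_D19 (3.46% called), 2 of 17 and 1 of 18 in Sham_D40 (4.69%), and 1 of 17 and 0 of 19 in Ctrl (2.12%). In all 4 libraries the medians of these cells lay between -0.21 and 0.12.

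The contrast was repeated in LepR-marker cells. In Graft_D40, 37 cells against 953 gave 12 of 16 interferon-gamma targets (median 1.68) and 19 of 20 type I targets (median 1.83), where 4.37% of genes were called higher. Rsad2, the antiviral enzyme viperin, stood at 332 CPM against 9.78 CPM, a 34.0-fold difference (25.3 to 45.9), and Gbp6 at 102 against 18.1 CPM. In Graft_D19, 22 cells against 1568 gave 13 of 16 (median 1.56) and 19 of 20 (median 1.96), where 5.76% of genes were called higher, with Ifit3 at 334 against 30.7 CPM and Gbp2 at 244 against 39.3 CPM. In Sham_D40, 13 cells gave 2 of 16 (median 0.32) and 5 of 19 (median 0.57) with 3.53% called. In Ctrl, 9 cells gave 8 of 17 (median 1.57) and 7 of 18 (median 1.32) with 3.03% called. The Ctrl median of the interferon-gamma targets was thus near those of the graft libraries, and a pool of 9 cells allows fewer calls. LepR-marker cells with Cxcl9 alone were higher for 10 of 20 type I targets in Graft_D40 (median 0.69), where 2.15% of genes were called higher, and for 4 of 17 interferon-gamma targets (median 0.23). In Graft_D19 these cells were higher for 5 of 19 type I and 1 of 16 interferon-gamma targets (1.9% called), in Sham_D40 for 5 of 18 and 0 of 16 (1.94% called) and in Ctrl for 1 of 16 and 4 of 17 (2.32% called).

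With a limit of 5 or more Cxcl10 UMIs, an alternative added after seeing the data, the 14 endothelial cells of Graft_D40 were higher for 17 of 17 and 22 of 22 measured targets, where 11.9% of genes were called. The 9 such cells of Graft_D19 were higher for 23 of 23 and 18 of 21, where 5.07% were called. Here too, genes low in cells with neither could be measured only through the cells with Cxcl10. The 8 such cells of Sham_D40 were higher for 2 of 15 and 0 of 18, where 7.61% were called, and the 3 of Ctrl for 8 of 19 and 9 of 19, where 4.3% were called. In LepR-marker stroma 1 cell of Sham_D40 and 1 of Ctrl reached that limit.

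**Figure D4:**
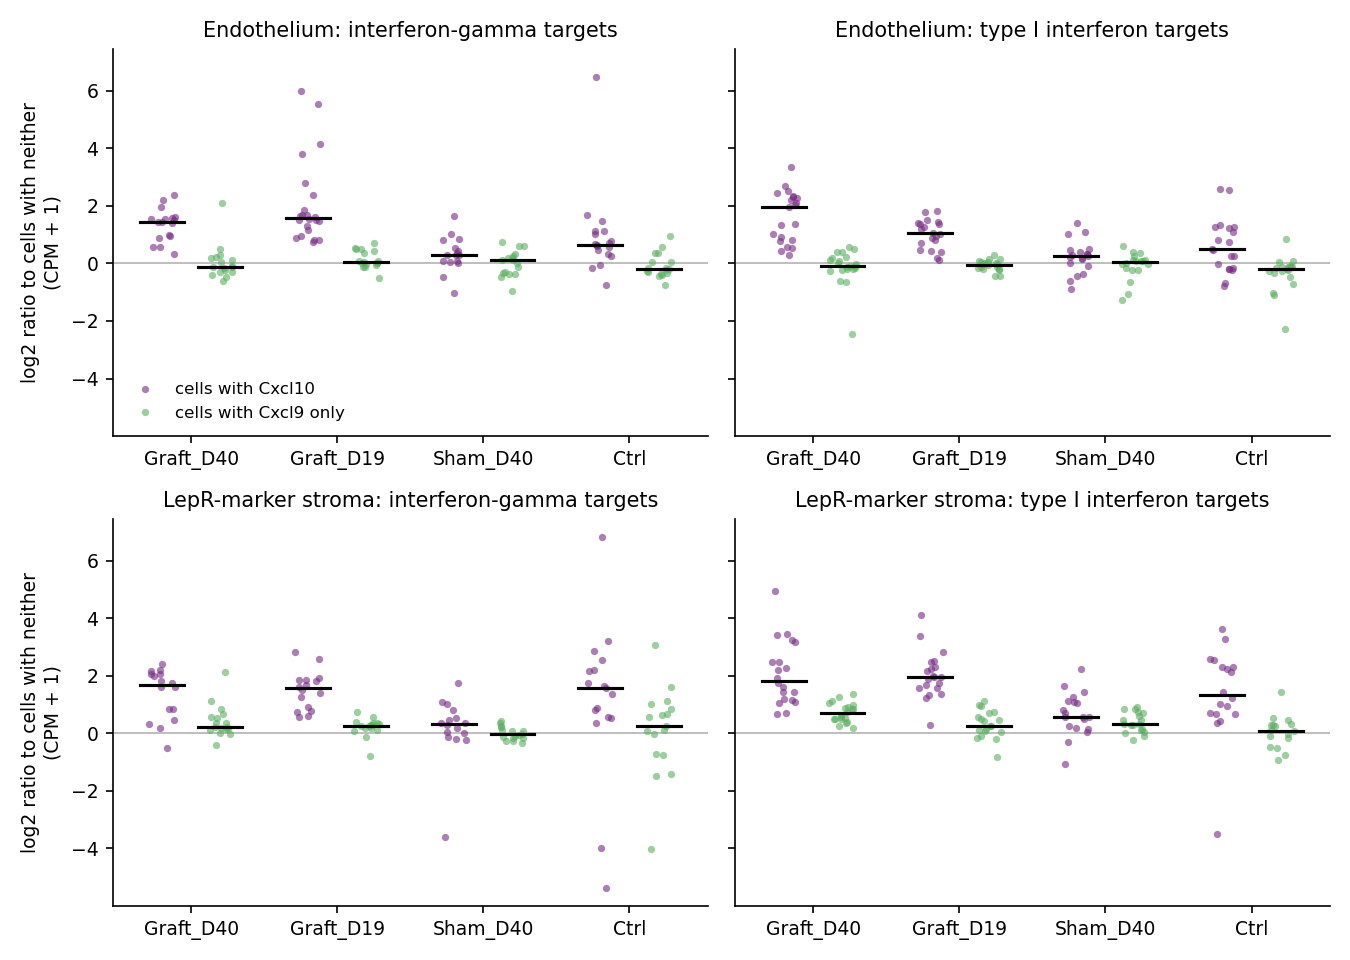
Log2 ratio of CPM + 1 over cells with neither chemokine (vertical axis) for each measured interferon-gamma target (left) and type I interferon target (right), in endothelium (top) and LepR-marker stroma (bottom), by library. Purple points are cells with Cxcl10, green points cells with Cxcl9 only and bars are medians, which in Graft_D40 endothelium are 1.43 and 1.97 for cells with Cxcl10 against -0.12 and -0.08 for cells with Cxcl9 only.

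Genes of the NF-kB pathway, the other inducer of Cxcl10, were less uniform. Of the measured list genes, 6 of 8 were higher in Cxcl10-positive endothelial cells of Graft_D40, 3 of 7 in Graft_D19, 2 of 6 in Sham_D40 and 3 of 6 in Ctrl, against 8.9%, 7.47%, 7.87% and 4.74% of all genes. In Graft_D19 1 list gene, Nfkbiz, was lower. Ccl2, a monocyte chemokine, stood at 428 against 27.6 CPM in Graft_D40. Icam1, an adhesion molecule for leukocytes, stood at 102 against 57.0 CPM in Graft_D40 and at 206 against 115 CPM in Sham_D40. In LepR-marker cells the counts were 4 of 8, 8 of 9, 3 of 8 and 1 of 7, against 4.37%, 5.76%, 3.53% and 3.03% of all genes, and Ccl2 was higher with Cxcl10 in each library, at 415 against 112 CPM in Graft_D40 and 427 against 74.4 CPM in Sham_D40.

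Upstream genes of the pathway were present while the ligands were not seen. Of 9 interferon ligand genes, 8 (Ifng, Ifnb1, Ifna1, Ifna2, Ifna4, Ifne, Ifnl2 and Ifnl3) had no UMI in any kept cell, which allows up to 0.0616% of cells with a UMI in Graft_D40 and 0.0736% in Ctrl. Ifnk had 1 UMI in Graft_D19 and 2 in Sham_D40. The sort removes Cd45-positive cells, which are the usual source of most of these ligands. Endothelial Ifngr1, a chain of the interferon-gamma receptor, stood at 249 CPM in Graft_D40 and 231 in Graft_D19, against 222 in Sham_D40 and 217 in Ctrl. Cxcr3 had 13, 10, 3 and 8 UMIs in all.

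The interferon lists were also compared between libraries, to set the pair beside other genes of its pathway. In Graft_D40 endothelium, 9 of 17 measured interferon-gamma targets were called higher and 1 lower than in Sham_D40 (median log2 0.56, against 0.03 over all genes), and 17 of 21 type I targets were higher and none lower (median 1.10). Oasl1 stood at 27.7 against 4.01 CPM, Rsad2 at 329 against 87.7 CPM and Irf7, the amplifier of type I interferon production, at 131 against 37.7 CPM. Gbp4 stood at 103 against 50.2 CPM, while Serpina3g, a protease inhibitor induced by interferon-gamma, stood at 13.6 against 43.1 CPM. Jak1, the kinase shared by both interferon receptors, was lower, at 366 against 861 CPM. Endothelial Cxcl9 thus lay on the same side as Serpina3g and Jak1, and Cxcl10 on the side of most list genes.

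Most endothelial cells held neither chemokine, and those cells differed as well. Among them, 14 of 20 type I targets (median 0.85) and 6 of 17 interferon-gamma targets (median 0.40) were higher in Graft_D40 than in Sham_D40, where 5.84% of genes were called higher. In LepR-marker cells with neither, 6 of 19 type I targets (median 0.43) and 1 of 17 interferon-gamma targets (median -0.02) were higher, where 6.49% were called. Between Graft_D19 and Ctrl, 6 of 21 type I and 3 of 16 interferon-gamma targets were higher in endothelial cells with neither, where 16.6% of genes were called, and 2 of 20 and 4 of 16 in LepR-marker cells with neither, where 28.3% were called. Of these 4 shares of Graft_D19 over Ctrl, the type I targets in endothelium were the highest relative to their background.

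LepR-marker stroma as a whole had 12 of 20 type I targets called higher in Graft_D40 than in Sham_D40 (median 0.63, against 0.08 over all genes) and 2 of 17 interferon-gamma targets (median 0.10), where 6.57% of genes were called higher. Ifit3 stood at 61.8 against 30.5 CPM, Ifi44 at 71.7 against 32.4 CPM and Gbp2 at 58.8 against 33.6 CPM. Ifngr2, the signalling chain of the interferon-gamma receptor, stood at 235 against 118 CPM. In whole stroma the interferon-gamma and NF-kB lists ran against the pair. Of their measured genes, 8 of 15 and 5 of 8 were called lower in Graft_D40, against 11.4% of all genes. The type I list is not given for this comparison. Iigp1 stood at 66.9 against 179 CPM and Icam1 at 14.1 against 31.3 CPM. LepR-marker cells, in which these genes were high, made up 1074 of 2813 stromal cells in Graft_D40 and 1953 of 2947 in Sham_D40.

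Between Graft_D19 and Ctrl, 9 of 20 type I targets and 5 of 18 interferon-gamma targets were called higher in endothelium, with 0 and 4 lower, where 18.4% of all genes were called higher and 7.72% lower. Rsad2 stood at 179 against 64.3 CPM and Tap1, a peptide transporter of antigen presentation, at 38.0 against 19.1 CPM. In LepR-marker stroma 2 of 20 and 5 of 16 were higher, below and near the 28.5% of all genes, with Gbp7 at 89.8 against 33.9 CPM. In whole stroma 1 of 17 and 1 of 17 were higher and 11 and 7 lower, against 18.2% and 14% of all genes. Isg15, a ubiquitin-like interferon product, stood there at 86.3 against 201 CPM.

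The make-up of the classes differed between libraries. Clusters were built without the pair and without the interferon and chemokine lists. Cluster 7, led by Cxcl13, Heyl and Col8a1, held 79.2% of LepR-marker cells of Graft_D40 and 36.4% of those of Graft_D19, against 1.3% in Sham_D40 and 1.3% in Ctrl. Within it, Cxcl9 stood at 73.8 CPM in Graft_D40 and 60.6 CPM in Graft_D19, and Cxcl10 at 43.8 and 29.7 CPM. In Graft_D40 204 of its 324 Cxcl10 UMIs, and in Graft_D19 139 of its 152, lay in 1 cell, without which the cluster held 16.2 and 2.54 CPM. The highest Cxcl9 cell held 9.34% of the cluster's Cxcl9 UMIs in Graft_D40 and 38.1% in Graft_D19, where 37.6 CPM were left without it. Leaving out the highest cell of a cluster was an alternative added after seeing the data. Only 25 Sham_D40 and 20 Ctrl cells lay in the cluster, so its ungrafted level is poorly known. Cluster 4 held 47.1% of the LepR-marker cells of Sham_D40 and 61 cells of Graft_D40. There Cxcl9 stood at 7.7 CPM in Graft_D40 and 16.6 in Graft_D19, against 12.8 in Sham_D40 and 4.9 in Ctrl, with overlapping intervals between Graft_D40 and Sham_D40. In cluster 2, with 60 Graft_D40 cells, Cxcl9 stood at 56.9 CPM (38.1 to 81.8) in Graft_D40 against 10.3 (7.35 to 14.0) in Sham_D40. Without the highest cell of each library, 28.1 and 6.44 CPM were left there. In cluster 5 and in cluster 6 the Cxcl9 intervals of Graft_D40 and Sham_D40 overlapped. Cluster 1, nearly all Ctrl, held 63.2% of the LepR-marker cells of Ctrl, with 25.0 CPM of Cxcl9 and 8.5 CPM of Cxcl10, or 14.4 and 1.42 CPM without the highest cell.

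**Figure D5:**
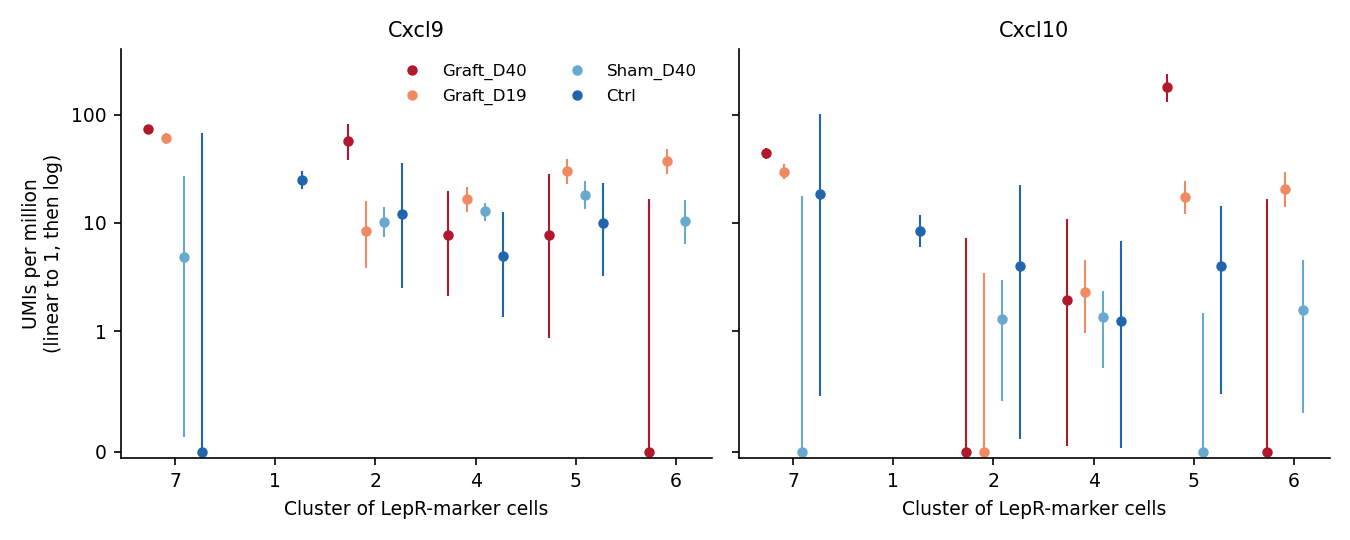
Level of Cxcl9 (left) and Cxcl10 (right) in CPM, on an axis linear up to 1 and logarithmic above, for LepR-marker cells of each library within clusters built without either gene, with 95% Poisson intervals. In cluster 7 Cxcl9 stood at 73.8 CPM in Graft_D40 and 60.6 CPM in Graft_D19, whereas in cluster 4 it did not exceed 16.6 CPM in any library. In cluster 2 it stood at 56.9 CPM in Graft_D40 and 10.3 CPM in Sham_D40.

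Endothelium was made up of different clusters too. Cluster 9 held 8.6% of endothelial cells of Graft_D40 and 34.6% of those of Graft_D19, against 51.0% in Sham_D40 and 5.2% in Ctrl. Its Cxcl9 was 188 CPM in Graft_D40 and 164 in Graft_D19, against 189 in Sham_D40 and 236 in Ctrl, or 146, 160, 186 and 216 CPM without the highest cell of each library. Cluster 10, led by Ramp3, Piezo2 and Ednrb, held 43.2% and 41.3% of the graft endothelium against 9.9% and 5.0% of that of Sham_D40 and Ctrl, with 74.2 CPM of Cxcl9 in Graft_D40 and 178 CPM in Graft_D19, against 95.1 CPM in Sham_D40 and 135 CPM in Ctrl, but 598 of its Cxcl9 UMIs in Graft_D19 lay in 1 cell, without which 69.4 CPM remained. Cluster 8, with 226 CPM of Cxcl9, held 62.4% of the endothelial cells of Ctrl. Cxcl10 in cluster 9 stood at 151 CPM in Graft_D40 and 15.9 CPM in Sham_D40, but 159 of the 175 UMIs in Graft_D40 lay in 1 cell. Without the highest cell of each library, cluster 9 held 13.9 CPM in Graft_D40 and 12.2 CPM in Sham_D40. Cluster 10 held 35.5 CPM in Graft_D40 and 13.1 CPM in Sham_D40, or 21.8 and 6.11 CPM without the highest cells.

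Macrophages are a usual source of both chemokines, so their markers were followed as well. The summed level of 12 macrophage markers was 188, 280, 224 and 402 CPM in endothelium of Graft_D40, Graft_D19, Sham_D40 and Ctrl, and 54.6, 47.8, 56.5 and 97.8 CPM in LepR-marker stroma. In endothelium they had the same order over the libraries as Cxcl9, with Ctrl highest and Graft_D40 lowest, while Cxcl10 was highest in Graft_D40, and their part in the Cxcl9 differences was not tested beyond leaving cells out. Leaving out every cell with a UMI of the 7 macrophage genes gave log2 ratios of Graft_D40 over Sham_D40 of 1.59 for Cxcl9 and 4.25 for Cxcl10 in stroma, and of -0.69 and 2.68 in endothelium.

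Across 35 units of 1 class in 1 library with 50 or more cells, the levels of the pair correlated with r = 0.76 (log2 of CPM + 1, units sharing libraries and depth). Of 11153 genes, those most like Cxcl9 were Tor3a (r = 0.84), Pde2a (0.83), Tmem173 (0.83), Arl6ip1 (0.83) and Irgm1 (0.82). Those most like Cxcl10 were Ifit3 (0.78), Ifit3b (0.76), Gbp6 (0.75), Dhx58 (0.75) and Cmpk2 (0.73). These are descriptions over units that share their source, with no test.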

How the data were processed

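Single-cell 3' libraries of 4 mouse samples were deposited as sparse matrices of raw UMI counts, made by the authors with Cell Ranger 5.0.0 per the file headers, while the submitters' processing notes name Cell Ranger 3.1.0 and mm10. Antibody features in 2 libraries were left out. Cells were kept from 500 genes and 1000 UMIs upward if no more than 10% of UMIs were mitochondrial, and doublets were removed with Scrublet (scanpy 1.11.5, expected rate 6%), which marked 53, 89, 43 and 77 cells in Graft_D40, Graft_D19, Sham_D40 and Ctrl. No cell annotation was used: classes were rebuilt by a per-cell gate on mean z-scored marker levels (minimum and margin 0.3, wider margin 0.6), and mixed stroma is where no stromal list led. UMIs were summed per class and library, scaled to 1000000, and compared with exact Poisson and conditional intervals of 95% and a pseudocount of 1 CPM. Shares have Clopper-Pearson intervals after thinning to 2000 UMIs. Clusters (27, Leiden, resolution 1.0) came from scanpy. Loci follow GENCODE M21 (GRCm38). Protein sequences were not used here. With 1 library per group no count model was fitted. Calls and intervals were tried on simulated Poisson counts of class totals, which do not model UMIs concentrated in single cells. The members and gene lists were chosen with earlier results of these data known. Genes named are the pair, up to 4 genes per list at 20 CPM or more with the largest log2 ratios, lower-ranked list genes chosen after their values were seen, and the 5 genes most like each member. Scaling, pseudocount, comparator, doublets, filters, gate, clusters, macrophage RNA, top cells and thinning depth were varied.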

Additional observations from a re-analysis of the deposited data

Results flagged for a closer look

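Cxcl9 moved in opposite directions in the compartments of the late graft. Its log2 ratio of Graft_D40 over Sham_D40 was 1.57 in stroma and -0.73 in endothelium, each from 1 library per group, so the difference was not tested. Beside it, cluster 7 held 79.2% of LepR-marker cells in Graft_D40 and 1.3% in Sham_D40, and cluster 9 held 8.6% of endothelial cells in Graft_D40 and 51.0% in Sham_D40. The part of this make-up in the opposite directions was not tested.

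Stromal Cxcl9 also differed by time after grafting, with a log2 ratio of 1.57 for Graft_D40 over Sham_D40 and of -0.25 for Graft_D19 over Ctrl. The comparators differ in treatment and depth, and this difference was not tested either.

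In the barcodes that failed the cell filter in Graft_D40, Graft_D19 and Sham_D40, Cxcl9 stood at 28.4, 23.9 and 27.1 CPM and Cxcl10 at 35.3, 3.30 and 2.47 CPM. Barcodes of Ctrl that failed the cell filter carried more of both genes than its kept cells. Cxcl9 stood at 162 CPM (140 to 187) in the 1386 failed barcodes and 94.8 CPM in kept cells, and Cxcl10 at 116 CPM (97.0 to 137) and 13.4 CPM.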

How the results depend on the processing

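Over 11 alternatives, stromal Graft_D40 over Sham_D40 kept its sign in all 11, with log2 ratios of 0.63 to 2.18 for Cxcl9 and 1.82 to 4.29 for Cxcl10, as did endothelial Cxcl9 (-1.47 to -0.65) and Cxcl10 (0.98 to 2.71). Graft_D19 over Ctrl was less stable: stromal Cxcl9 kept its sign in 9 of 11 (-1.18 to 0.69), stromal Cxcl10 in 11 (0.03 to 2.15), endothelial Cxcl9 in 10 (-1.01 to 0.082) and endothelial Cxcl10 in 10 (-0.043 to 1.25). Ratios below are log2, Graft_D40 over Sham_D40 unless Graft_D19 over Ctrl is named; where no value shows the cause, the cause was not tested.

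As a mean over cells, Cxcl9 was 2.18 in stroma and -0.94 in endothelium and endothelial Cxcl10 2.17; for Graft_D19, Cxcl9 was 0.12 and -0.62 and endothelial Cxcl10 reversed to -0.043. A pseudocount of 5 CPM gave 1.21 and 2.56 for stromal Cxcl9 and Cxcl10 and 2.33 for endothelial Cxcl10. Against the other ungrafted library, stroma gave 0.63 and 2.32 and endothelium -1.21 and 2.33 (Cxcl9, Cxcl10); Graft_D19 over Sham_D40 gave 0.69 and 2.15 in stroma and 0.082 for endothelial Cxcl9. With classes from clusters, stromal Cxcl9 was 1.90, and for Graft_D19 -1.18 with endothelial Cxcl10 at 0.16. A wider gate gave 1.33 and 3.39 in stroma and 1.75 for endothelial Cxcl10, and for Graft_D19 -0.55 for stromal Cxcl9 and 1.25 for endothelial Cxcl10. Median-of-ratios scaling moved endothelial Cxcl9 of Graft_D19 to -0.58. Without the 10 highest cells, stromal Cxcl10 was 1.82, endothelial Cxcl9 -1.47 and Cxcl10 0.98, and for Graft_D19 endothelium -1.01 and 0.10. Without the single highest cell, chosen after seeing the data, endothelial Cxcl10 was 2.24, and for Graft_D19 -0.94 and 0.53.

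Thinned to 1000 UMIs, Cxcl9 shares were 1.96% in Graft_D40 and 0.75% in Sham_D40 stroma and 5.30%, 7.69%, 10.5% and 12.3% in endothelium of Graft_D40, Graft_D19, Sham_D40 and Ctrl. At 4000 UMIs they were 3.55%, 2.26%, 2.26% and 2.46% in stroma and 13.2%, 23.0%, 27.9% and 45.0% in endothelium, in the same order. Co-expression (Cxcl9 among cells with Cxcl10) was 54.3% unthinned in Sham_D40 endothelium, and at 1000 UMIs 62.5% in Graft_D40 and 100% in Ctrl LepR-marker cells.

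Counts of all genes called moved with the minimum level. For Graft_D40 over Sham_D40, no minimum gave 1366 higher and 2591 lower in stroma and 1261 and 1307 in endothelium, and 20 CPM gave 317 and 658, and 387 and 419. For Graft_D19 over Ctrl, no minimum gave 2497 lower in stroma and 1191 in endothelium, and 20 CPM gave 965 higher and 919 lower, and 1073 and 479. The other 80 values that answer a comparison moved by less than their spread or 1.5-fold limit, which is wide for co-expression in LepR-marker cells (Sham_D40 0% at 2000 UMIs and 38.5% unthinned; Graft_D19 45.5% and, at 4000 UMIs, 72.7%) and just met by higher calls in stroma of Graft_D19 over Ctrl (1950, and 2924 with no minimum). No paired analysis was possible because each group is 1 library. The shallow Ctrl library (3587 UMIs per cell) limits shares of cells, and 1 library per group limits every comparison.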
